A study of Mus musculus with 4 samples.

Results

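Ionotropic glutamate receptors are channels of 4 subunits that open when glutamate binds. They fall into AMPA receptors, built from Gria subunits, kainate receptors, built from Grik subunits, and NMDA receptors, which pair the obligatory subunit Grin1 with a Grin2 or Grin3 subunit. In the retina, photoreceptors and bipolar cells release glutamate. OFF bipolar cells receive it through AMPA and kainate receptors, ON bipolar cells through the metabotropic receptor Grm6, and amacrine and ganglion cells through AMPA, kainate and NMDA receptors. A subunit's transcript can carry alternative exons that alter the channel. In AMPA subunits, a flip or a flop exon encodes part of the ligand-binding domain and sets how fast the channel desensitizes. In Grin1, the cassette N1 lies in the amino-terminal domain, and the cassettes C1 and C2 lie in the cytoplasmic tail.

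The 10 genes described here, Gria1 to Gria4, Grik1, Grik2, Grik5, Grin1, Grin2a and Grin2b, were taken from a fixed list of subunit symbols, each matched through its Ensembl gene identifier. They are 10 of 13452 Ensembl genes and 43 of 44325 isoforms in the table of retinal isoform counts. They hold 3501 of 149645836 counts (0.00234%). Their totals ran from 18 counts for Grin2b to 1427 for Gria4, and the median total of a gene was 466.0.

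All retinas were from wild-type males of the inbred mouse strain C57BL6/J, with no other agent or allele in any group. They were dissociated with papain into 4 single-cell cDNA libraries read on a nanopore sequencer. Of the libraries, 2 had no enrichment, 1 of them from postnatal day 40 and the other without a stated age. The library with CD73 enrichment was from postnatal week 8. That with CD90.2 enrichment was from postnatal month 4. The protocol describes removal of CD73-positive photoreceptors and selection of CD90.2-positive neurons, so the 6 classes did not enter in their natural proportions. Counts were given for 6 cell classes with all libraries pooled. The photoreceptor classes are rods, with 55437340 counts, and cones, with 7307134. The inner retinal classes are amacrine cells (AC), with 48248340 counts, bipolar cells (BC), with 29010038, and Müller glia (MG), with 6133094. The output neurons, retinal ganglion cells (RGC), have 3509890. Each class is therefore 1 value without a replicate, and no test between classes was made. The number of cells behind a class was not given. Levels are counts per 1000000 counts of the class (CPM), not divided by transcript length. Every interval is an exact 95% interval, Poisson for a level and Clopper-Pearson for a share, and covers the error of counting alone. Because 1 molecule may have given more than 1 read, the intervals may be too narrow. A count of 0 allows up to 3 counts, which is 0.0541 CPM in rods, 0.0622 in AC, 0.103 in BC, 0.411 in cones, 0.489 in MG and 0.855 in RGC.

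The classes were checked against 6 marker genes each. All 6 rod, cone, bipolar, amacrine and ganglion markers, and 5 of 6 Müller glia markers, were highest in their own class. The remaining glial marker was highest in AC. Of cell types without a class, all 4 microglia markers (1217 CPM summed) and the 2 astrocyte markers with counts (88.5 CPM) were highest in MG. The 3 horizontal cell markers with counts were highest in AC, BC and cones, 1 in each, and summed to 72.9 CPM in AC. Markers were also read outside their class. The summed bipolar markers stood at 3.58% of their bipolar level in rods and 0.427% in AC, and at 4 counts in RGC, where 5 of the 6 had 0. The summed amacrine markers stood at 6.07% of their amacrine level in RGC, 4.35% in MG, 1.92% in rods and 0.629% in BC. The ganglion markers stood at 3.92% of their RGC level in AC. Whether such RNA contributes to the lower values below was not tested.

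The sequences that the splicing results turn on are given here from the GENCODE M21 transcripts of mouse build GRCm38 (mm10). They are written 5′ to 3′ on the strand of the gene. The flip and flop exons of Gria1 and of Gria4 are shown because Gria1 held both forms in different shares by class and Gria4 had an isoform with parts of both. Capitals mark the bases at which an exon differs from its partner. Each of the 8 flip and flop exons of Gria1 to Gria4 has 115 bases. The partners differ at 36 bases in Gria1, 36 in Gria2, 32 in Gria3 and 31 in Gria4. The N1 exon of Grin1 and a 45-base exon of Grik1 are shown because their inclusion differed between AC and BC, and no base of theirs is singled out.
Gria1 flop, chr11:57309769-57309883, plus strand: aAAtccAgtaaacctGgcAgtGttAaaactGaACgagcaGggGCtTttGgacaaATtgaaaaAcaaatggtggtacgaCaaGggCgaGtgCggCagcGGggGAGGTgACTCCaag
Gria1 flip, chr11:57310608-57310722, plus strand: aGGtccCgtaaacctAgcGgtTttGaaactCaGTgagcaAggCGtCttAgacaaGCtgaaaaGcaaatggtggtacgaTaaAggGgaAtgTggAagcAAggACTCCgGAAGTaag
Gria4 flop, chr9:4432773-4432887, minus strand: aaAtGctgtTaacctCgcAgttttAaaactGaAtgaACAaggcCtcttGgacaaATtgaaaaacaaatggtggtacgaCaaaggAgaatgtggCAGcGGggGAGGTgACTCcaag
Gria4 flip, chr9:4427030-4427144, minus strand: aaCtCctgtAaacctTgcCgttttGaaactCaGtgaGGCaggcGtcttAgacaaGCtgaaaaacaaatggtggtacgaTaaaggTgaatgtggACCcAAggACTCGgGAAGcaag
Grin1 N1, chr2:25311343-25311405, minus strand: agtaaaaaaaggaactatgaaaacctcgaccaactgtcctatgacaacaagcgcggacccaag
Grik1 45-base exon, chr16:87955289-87955333, minus strand: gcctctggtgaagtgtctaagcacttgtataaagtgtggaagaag
The N1 exon has 63 bases and the Grik1 exon 45, both multiples of 3, so that skipping either leaves the reading frame as it is.

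Subunit transcripts were concentrated in AC and BC. Summed over the 10 genes, the level was 45.2 CPM in AC (43.3 to 47.1), 39.4 in BC (37.1 to 41.8), 5.70 in RGC (3.48 to 8.80, from 20 counts), 4.24 in MG (2.77 to 6.21, from 26 counts), 2.46 in cones (1.46 to 3.89, from 18 counts) and 2.07 in rods (1.71 to 2.49). AC were 1.15-fold above BC (1.07 to 1.23), an order that did not hold throughout. The ratio was 1.03 (0.963 to 1.11) with scaling by the median of ratios and 0.99 (0.918 to 1.07) with only isoforms that have a deposited model of at least 2 exons. BC were 6.91-fold above RGC (4.46 to 11.4). Of the lower classes, neighbours in this order overlapped. The makeup differed between AC and BC. AC had 33.6 CPM of Gria, 5.08 of Grik and 6.51 of Grin transcripts, and BC had 14, 14.4 and 11 CPM. The Grin difference depends on loci listed by position, which these levels leave out. With same-strand modelled loci added, AC had 5.35 CPM of Grin1 and 6.32 of Grin2a, and BC had 11.8 and 0.0345. No order of AC and BC is therefore drawn for Grin. By the highest value alone, 6 of the 10 genes were highest in AC, 3 in BC and 1, Grik5, in cones with 5 counts. Among all genes with at least 10 counts, 21.3% were highest in AC, 14.1% in BC and 8.41% in cones. The interval of the highest class lay above that of every other class for 5 genes, Gria4 and Grik2 in AC and Gria1, Grik1 and Grin1 in BC. Of all genes with at least 10 counts, 9.5% stood apart in this way in AC and 6.35% in BC. Gria2, Gria3, Grik5, Grin2a and Grin2b did not.

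**Figure D1:**
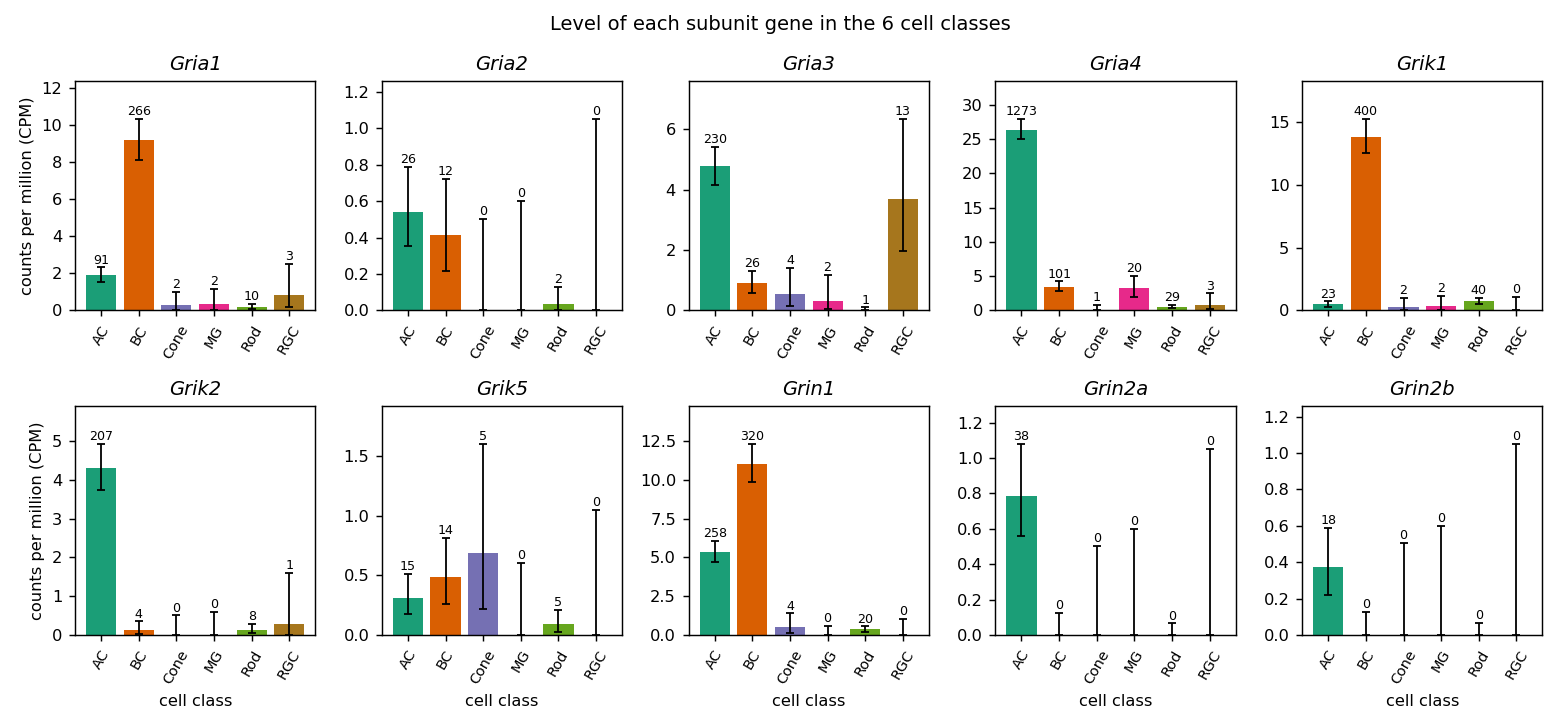
Level of each subunit gene in the 6 cell classes, in CPM on a linear axis that starts at 0 and has its own range for each gene; bars are single pooled values, error bars exact 95% Poisson intervals, and the number above each bar its count. Gria4 (1273 counts in AC), Gria3, Grik2, Grin2a and Grin2b are tallest in AC, and Gria1, Grik1 and Grin1 in BC.

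A class was called restricted for a gene when the gene had at least 10 counts and at least 80% of its summed CPM lay in that class. Grik1 was restricted to BC, with 88.5% of its summed CPM, and Grik2, Grin2a and Grin2b to AC, with 88.3%, 100% and 100%. These are 4 of 10 genes. Of all 13393 genes with at least 10 counts, 15.5% were restricted to any class, 4.57% to AC and 1.65% to BC. At a share of 95%, 2 genes were restricted, against 6.23% of all genes, and at 50%, 8 genes, against 40.6%. For Grin2a and Grin2b the 100% rests on 38 and 18 counts. Their 0 counts in RGC allow up to 0.855 CPM, which is above their AC levels of 0.788 and 0.373 CPM.

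Gria4 (ENSMUSG00000025892.16, chromosome 9, 4417896 to 4796234), an AMPA subunit of fast-gated channels, had the most counts of the 10 genes. Its counts were 1273 in AC, 101 in BC, 29 in rods, 20 in MG, 3 in RGC and 1 in cones, which is 26.4 CPM in AC (25 to 27.9), 3.48 in BC (2.84 to 4.23), 3.26 in MG (1.99 to 5.04), 0.855 in RGC (0.176 to 2.50), 0.523 in rods (0.350 to 0.751) and 0.137 in cones (0.00346 to 0.762). AC stood alone at the top, 7.58-fold above BC (6.18 to 9.38), and BC and MG overlapped, as did MG and RGC. Gria4 in BC was at 13.2% of its AC level, where the amacrine markers were at 0.629%. In MG it was at 12.4%, where these markers were at 4.35%, and in rods at 1.98%, where they were at 1.92%.

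Gria3 (ENSMUSG00000001986.16, chromosome X, 41400854 to 41678601) had its highest values in AC and RGC, whose intervals overlapped. It had 230 counts in AC, 26 in BC, 13 in RGC, 4 in cones, 2 in MG and 1 in rods. The levels were 4.77 CPM in AC (4.17 to 5.42), 3.70 in RGC (1.97 to 6.33), 0.896 in BC (0.585 to 1.31), 0.547 in cones (0.149 to 1.40), 0.326 in MG (0.0395 to 1.18) and 0.0180 in rods (0.000457 to 0.101). AC and RGC cannot be told apart (ratio 1.29, 0.738 to 2.45). Their order turned with the isoforms that were counted. With only isoforms that have a model of at least 2 exons, AC stood at 1.10 CPM (0.823 to 1.44), below the 1.99 CPM of RGC (0.802 to 4.11), and with isoforms of at least 10 counts AC were 2.37-fold above RGC (1.13 to 5.96). AC were 5.32-fold above BC (3.54 to 8.32) and RGC 4.13-fold above BC (1.95 to 8.34). At 77.7% of the AC level, Gria3 in RGC lay well above the 6.07% of the amacrine markers there. The RGC value rests on 13 counts.

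Gria1 (ENSMUSG00000020524.16, chromosome 11, 57011387 to 57330244) was the one AMPA subunit highest in BC. It had 266 counts in BC, 91 in AC, 10 in rods, 3 in RGC, 2 in MG and 2 in cones. The levels were 9.17 CPM in BC (8.10 to 10.3), 1.89 in AC (1.52 to 2.32), 0.855 in RGC (0.176 to 2.50), 0.326 in MG (0.0395 to 1.18), 0.274 in cones (0.0331 to 0.989) and 0.180 in rods (0.0865 to 0.332). BC were 4.86-fold above AC (3.82 to 6.24), and AC and RGC overlapped. AC were at 20.6% of the BC level, where the bipolar markers were at 0.427%. Rods were at 1.97%, below the 3.58% of these markers.

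Gria2 (ENSMUSG00000033981.14, chromosome 3, 80681450 to 80802835) encodes the subunit whose edited form makes AMPA receptors impermeable to calcium. It had only 40 counts, 26 in AC, 12 in BC and 2 in rods, with 0 in cones, MG and RGC. The levels were 0.539 CPM in AC (0.352 to 0.790), 0.414 in BC (0.214 to 0.723) and 0.0361 in rods (0.00437 to 0.130). AC and BC cannot be told apart (ratio 1.3, 0.635 to 2.83). Its total was above that of 14.1% of Ensembl genes, while that of Gria4 was above 65.9%. For both genes all isoforms with a structure were incomplete, so these totals do not rank their full-length transcripts.

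The kainate subunits were divided between the classes. Grik1 (ENSMUSG00000022935.16, chromosome 16, 87895900 to 88290265), which encodes GluK1, had 400 counts in BC, 40 in rods, 23 in AC, 2 in MG, 2 in cones and 0 in RGC. The levels were 13.8 CPM in BC (12.5 to 15.2), 0.722 in rods (0.515 to 0.983), 0.477 in AC (0.302 to 0.715), 0.326 in MG and 0.274 in cones. BC were 28.9-fold above AC (19.0 to 46.2) and 19.1-fold above rods (13.8 to 27.2). The BC level stood apart, and rods and AC overlapped (ratio 1.51, 0.885 to 2.65). Grik1 was at 5.23% of its BC level in rods, where the bipolar markers were at 3.58%, and at 3.46% in AC, where they were at 0.427%.

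Grik2 (ENSMUSG00000056073.16, chromosome 10, 49094833 to 49788766), which encodes GluK2, showed the reverse order. Its counts were 207 in AC, 8 in rods, 4 in BC, 1 in RGC and 0 in cones and MG. The levels were 4.29 CPM in AC (3.73 to 4.92), 0.285 in RGC (0.00721 to 1.59), 0.144 in rods (0.0623 to 0.284) and 0.138 in BC (0.0376 to 0.353). AC were 31.1-fold above BC (12 to 115), and the other classes overlapped. The rod value was 3.36% of the AC level, beside 1.92% for the amacrine markers. Grik5 (ENSMUSG00000003378.9, chromosome 7, 25009849 to 25072346), which encodes the high-affinity subunit GluK5 that needs a partner such as GluK1 or GluK2, had 39 counts, 15 in AC, 14 in BC, 5 in cones, 5 in rods and 0 in MG and RGC. Its levels were 0.684 CPM in cones (0.222 to 1.60), 0.483 in BC (0.264 to 0.810), 0.311 in AC (0.174 to 0.513) and 0.0902 in rods (0.0293 to 0.210). Cones, BC and AC overlapped, so that no class can be named as highest, and BC were 5.35-fold above rods (1.82 to 19.0).

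Grin1 (ENSMUSG00000026959.13, chromosome 2, 25291181 to 25319187), the subunit common to all NMDA receptors, had most of its counts in BC and AC. It had 320 counts in BC, 258 in AC, 20 in rods, 4 in cones and 0 in MG and RGC. The levels were 11 CPM in BC (9.86 to 12.3), 5.35 in AC (4.71 to 6.04), 0.547 in cones (0.149 to 1.40) and 0.361 in rods (0.220 to 0.557). BC were 2.06-fold above AC (1.75 to 2.44), and cones and rods overlapped. The BC lead rests on an incomplete isoform, with 291 counts in BC and 87 in AC. The annotated isoforms Grin1-205 and Grin1-207 went the other way, with 48 counts in AC and 13 in BC before scaling. Both were given their full structure from GENCODE M21 by identifier, so that their reads reach both coding ends was not tested. The rod value was 3.27% of the BC level, beside 3.58% for the bipolar markers. The 0 counts in RGC hold for the Ensembl identifier of the gene. A 2-exon locus on the same strand, listed by position (chromosome 2, 25291181 to 25319126), had 7 counts in RGC, 21 in BC and 0 in AC. With it added, RGC stood at 1.99 CPM (0.802 to 4.11), and BC were 5.89-fold (2.83 to 14.8) and AC 2.68-fold (1.28 to 6.74) above RGC.

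Under their Ensembl identifiers, the NMDA subunits Grin2a and Grin2b, which bind glutamate, were counted in AC alone. The other Grin2 genes, Grin2c and Grin2d, were not among the genes with counts, so nothing is said of them in any class. Grin2a (ENSMUSG00000059003.12, chromosome 16, 9567898 to 9995560) had 38 counts in AC, or 0.788 CPM (0.557 to 1.08), and Grin2b (ENSMUSG00000030209.14, chromosome 6, 135713233 to 136173511) had 18, or 0.373 CPM (0.221 to 0.590). Both had 0 counts in the other 5 classes. Set against 3 counts in the lower class, Grin2a in AC was 7.62-fold higher than in BC and 14.6-fold higher than in rods, and Grin2b 3.61-fold and 6.89-fold. These ratios leave out the counting error of the AC counts, so they are not lower limits. In RGC the limit of 0.855 CPM lies above both AC levels. The limits of 0.411 CPM in cones and 0.489 in MG also lie above the AC level of Grin2b. A level of Grin2b as in AC was thus not detectable in RGC, cones or MG at this depth. For Grin2a in RGC this depends on a single-exon locus on its strand, listed by position. That locus had 267 counts in AC, 2 in rods, 1 in BC and 0 in RGC. With it added, Grin2a stood at 6.32 CPM in AC (5.63 to 7.07), above the RGC limit, and AC were 183-fold above BC (32.7 to 7267) and 175-fold above rods (48.1 to 1453). Of the glycine-binding Grin3 subunits, named here after their values were seen, Grin3a had 11 counts in BC (0.379 CPM) and 1 in AC, and Grin3b had 2 in BC and 12 in AC (0.249 CPM). BC thus had 320 Grin1 counts, 11 of Grin3a, 2 of Grin3b and 0 under Grin2a and Grin2b.

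The isoforms of these genes were mostly unannotated and mostly incomplete. An isoform is called annotated when its identifier is an Ensembl transcript, and isoforms are numbered within a gene by their total counts. Of the 43 isoforms, 36 (83.7%) were unannotated, against 60.3% of all isoforms of Ensembl genes. They held 79.1% of the members' counts (77.7 to 80.4), against 5.58% over all Ensembl genes and 37.2% over the genes whose totals lie in the members' range. The share was 93.2% in AC (92 to 94.2) and 52.9% in BC (50 to 55.9). By gene it was 7.22% for Gria1, 33.6% for Grik1, 89.9% for Grin1 and 93.2% for Grik2, and 100% for the other 6.

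Most splice junctions of the unannotated forms are annotated. Of 82 junctions in the deposited models of the members' unannotated isoforms, 78 (95.1%) are in GENCODE M21, against 91.7% of those in unannotated isoforms of all genes. Of the 20 unannotated isoforms with a structure, 10 ended outside every annotated exon of the gene, against 25.2% over all genes. These 10 held 1924 of the 2391 counts. Annotated forms included, a structure was known for 27 isoforms with 3124 counts. In 61.6% of these counts (59.9 to 63.3) the 3′ end lay outside annotated exons, against 0.851% over all genes and 13.4% over genes in the members' range of totals. The share was 77.5% in AC (75.5 to 79.4) and 36.8% in BC (33.9 to 39.7). Isoforms with both the first and the last coding base of the longest coding transcript held 11.1% of the counts (10.0 to 12.3), against 88.1% and 61.1%. With any annotated coding transcript as the measure, the share was 28.0% (26.4 to 29.6), against 95.7% and 68.8%.

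**Figure D2:**
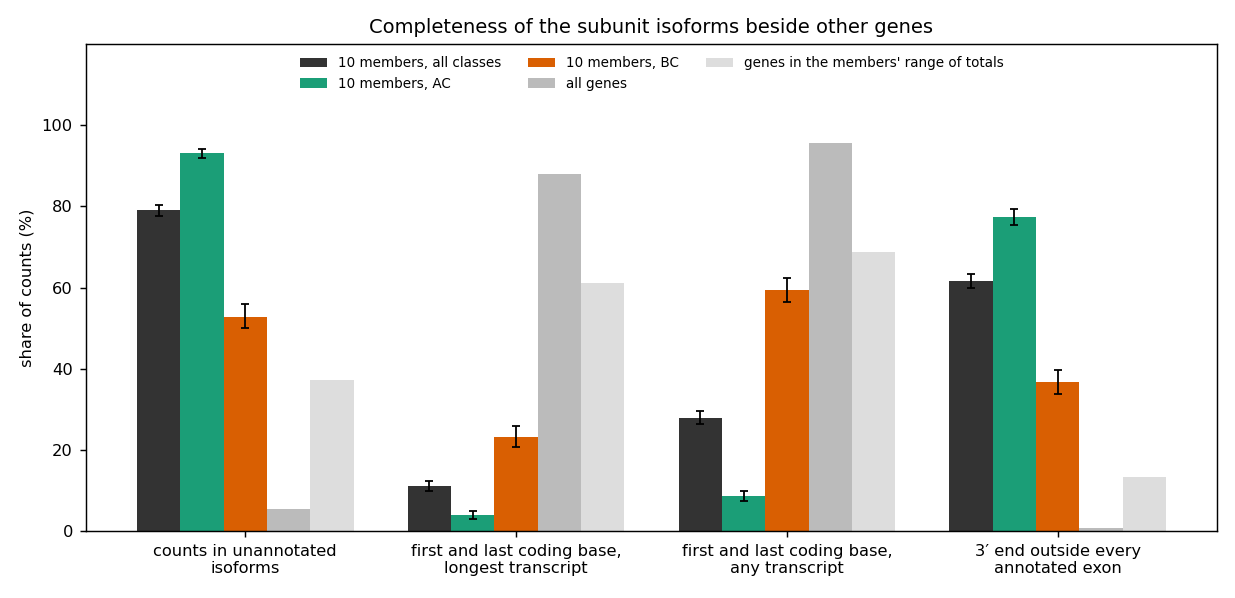
Share of counts, in percent, in unannotated isoforms, in isoforms with both ends of the coding sequence, and in isoforms that end outside annotated exons, for the 10 genes in all classes, in AC and in BC, beside all genes and genes with totals in the members' range; error bars are exact 95% intervals. The members end outside annotated exons in 61.6% of counts, against 0.851% over all genes.

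Gria4 shows the pattern at the largest counts. Its isoform 1 (1043 counts, 73.1% of the gene) ran from the annotated start through exons 1 to 4 and ended in exon 5, which continued past its annotated end to 326 bases. It ended 59231 bases from the nearest annotated transcript end. Isoform 3 (137 counts) held exons 1 to 11 and ended in an extended exon 11. Isoform 2 (247 counts, 17.3%) held only the 3′ part of the gene. No Gria4 isoform had both ends of a coding sequence. Grik2 was similar. Its isoform 1 (118 counts) ran from exon 2 to an extended exon 6, and isoform 2 (46 counts) ended in an extended exon 4, so neither reached the exons that encode the channel pore.

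Gria2 had a structure for 1 isoform, a fragment of exons 7 and 8 of which both were extended (30 counts). Gria3 had a structure for 1 of 6, an isoform of exons 1 to 5 with exon 5 extended to 870 bases (61 counts), and the other 5 isoforms, with 215 counts, have no model because the deposited models cover isoforms with at least 1 rod count. Isoform 1 of Gria3 (136 counts, 120 in AC and 14 in BC) is among these. Grin2a and Grin2b have no model. Of Grik5, isoform 2 (14 counts) held exons 1 to 13 and isoform 3 (9 counts) exons 16 to 19.

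Gria1 and Grik1 were the exceptions. All 347 Gria1 counts with a structure had both coding ends, though for 40 of them the structure was taken from GENCODE M21 by identifier. Of the Grik1 counts, 452 of 467 (96.8%, 94.8 to 98.2) had both ends of some coding transcript, although none had the stop codon of the longest transcript. Isoform 1 of Grik1, Grik1-206 (264 counts), and 5 of the other 6 isoforms shared a last exon with an alternative stop codon. Both genes were highest in BC, as was Grin1, of which 90.9% of the counts in BC ended outside annotated exons.

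**Figure D3:**
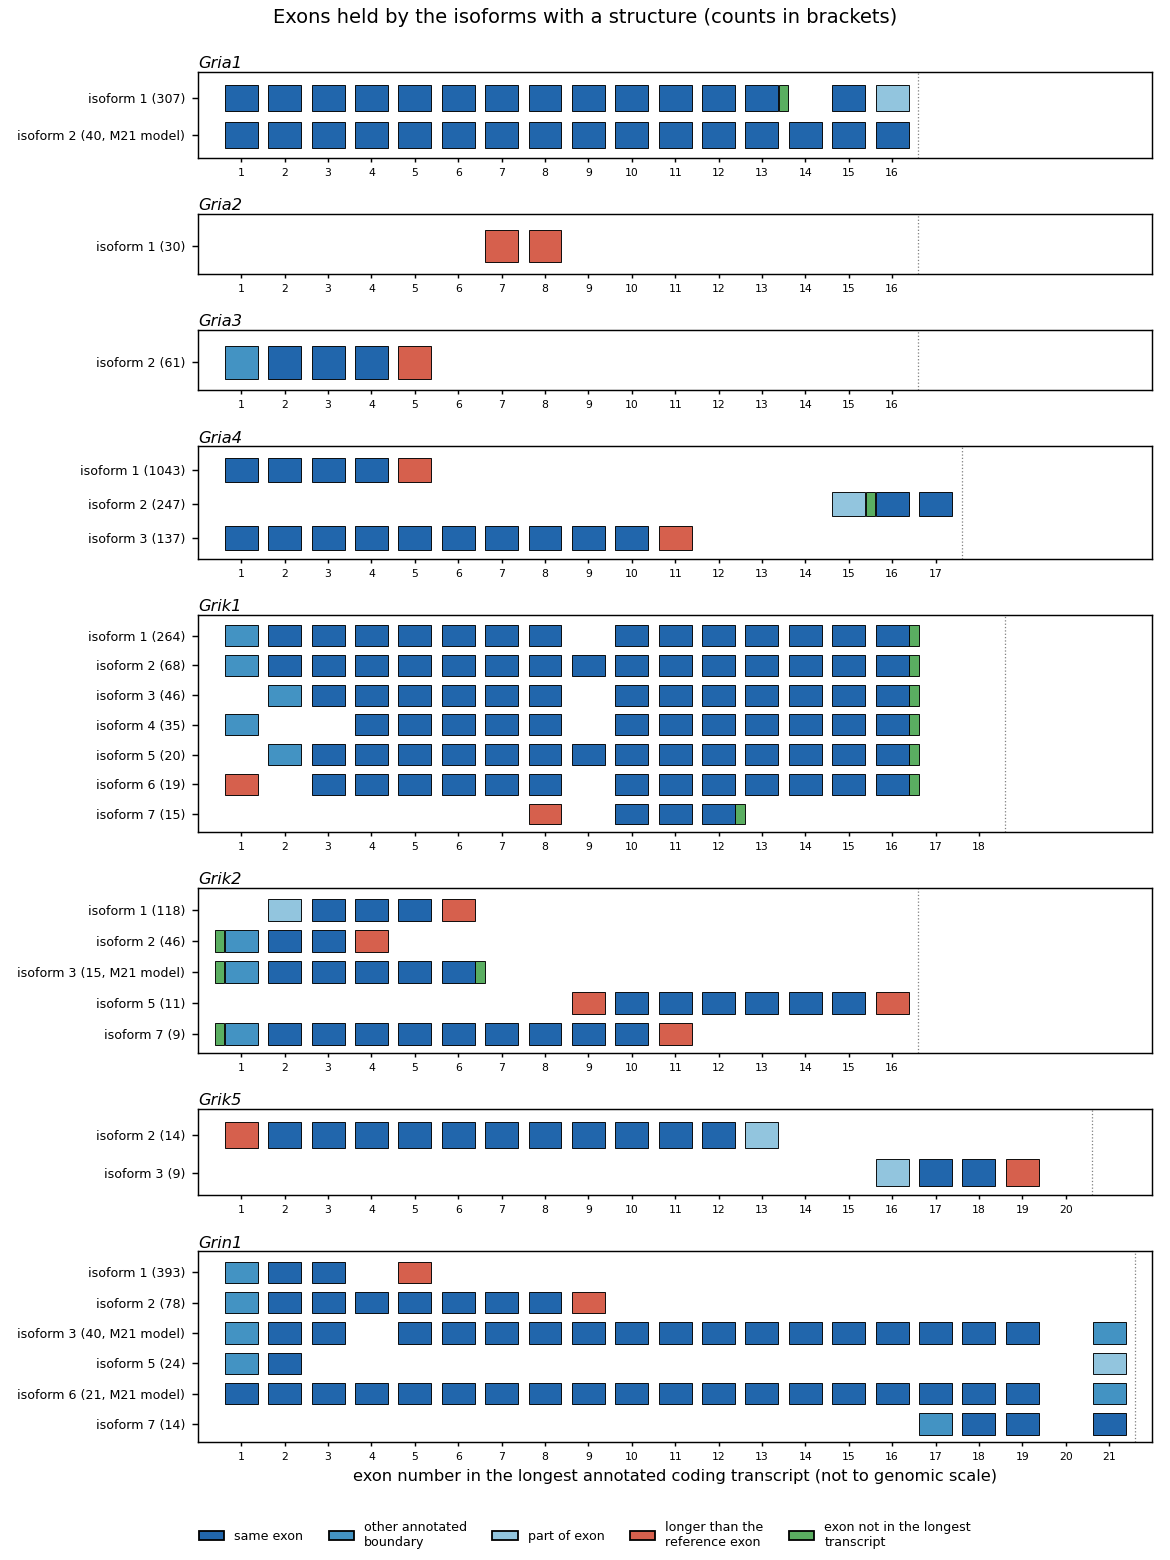
Exons held by each isoform with a structure, for 8 genes, numbered by exon of the longest annotated coding transcript and not to genomic scale; colours show whether an exon equals the reference exon, has another annotated boundary, is shorter, is longer, or is absent from that transcript, and brackets give the isoform's counts. The most abundant isoforms of Gria4 (1043 counts) and Grin1 (393 counts) stop at a lengthened exon 5. That of Gria1 reaches the last exon. That of Grik1 runs to exon 16 of 18 and ends in an exon absent from the longest transcript.

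Flip and flop could be read for 1 of the 4 AMPA subunits. In Gria1, isoform 1 (Gria1-202, 307 counts, 82.1% of the gene) holds the flop exon printed above, and isoform 2 (Gria1-201, 40 counts) holds the flip exon. Flip had 22 of 74 informative counts in AC and 17 of 257 in BC. It was 29.7% of Gria1 in AC (19.7 to 41.5) and 6.61% in BC (3.90 to 10.4), so that flop was the main form in both and the intervals did not overlap. In rods 0 of 10 counts were flip (0 to 30.8%). The structure of isoform 2 was taken from GENCODE M21 by its identifier, because it had no rod count and thus no deposited model. Another 17 AC counts and 9 BC counts of Gria1 belong to isoforms without a structure.

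In Gria4, isoform 2 holds parts of both alternatives. Its first exon is the last 67 bases of the flop exon (chromosome 9, 4432773 to 4432839), joined to the whole flip exon, then to exons 16 and 17. Of its 3 introns, 2 are annotated, and the one that joins flop to flip is not. It had 235 counts in AC, 6 in BC, 4 in rods, 1 in MG and 1 in RGC, which was 18.5% of Gria4 in AC (16.4 to 20.7) and 5.94% in BC (2.21 to 12.5). The flip and flop exons each have a length that leaves a remainder of 1 when divided by 3, so a transcript with both whole exons would shift its frame. The other 1180 Gria4 counts ended before these exons. Neither exon was in the 30 Gria2 counts or the 61 Gria3 counts with a structure, so flip and flop shares were not measurable for Gria2, Gria3 and Gria4.

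**Figure D4:**
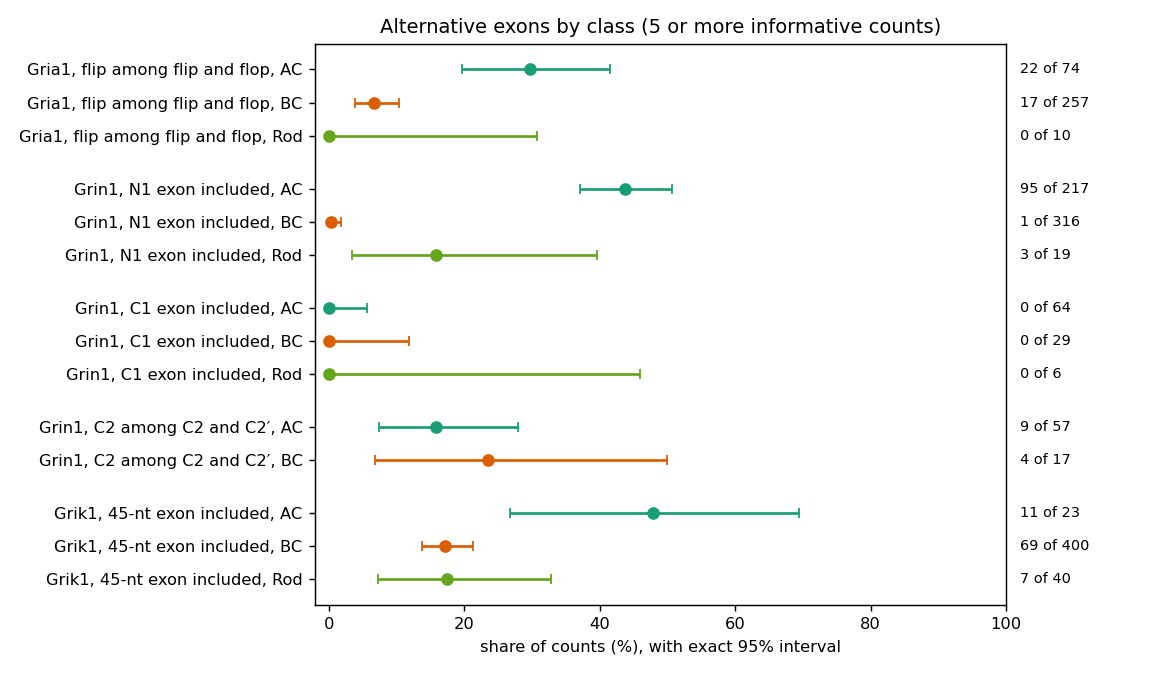
Share of counts, in percent, that hold each alternative exon in AC, BC and rods where at least 5 counts were informative; points are single pooled values, bars exact 95% intervals, and the counts stand at the right. The AC and BC intervals do not overlap for Gria1 flip, Grin1 N1 and the 45-base exon of Grik1, and they overlap for Grin1 C1 and C2.

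The N1 cassette of Grin1 separated AC from BC. Among isoforms that span it, N1 was in 95 of 217 counts in AC, 1 of 316 in BC and 3 of 19 in rods. The share was 43.8% in AC (37.1 to 50.7), 0.316% in BC (0.00801 to 1.75) and 15.8% in rods (3.38 to 39.6). The counts without N1 include isoform 5, which joins exon 2 to the last exon, with 7 in AC, 12 in BC and 5 in rods. With the exons on both sides required, the share was 45.2% in AC (38.4 to 52.2) and 0.329% in BC (0.00833 to 1.82). The difference follows 2 isoforms. Isoform 1 (393 counts) skips N1 and ends in an extended exon 5. It had 291 counts in BC, 90.9% of the gene there (87.2 to 93.8), and 87 in AC, 33.7% (28.0 to 39.8). Isoform 2 (78 counts) includes N1 and ends in an extended exon 9, with 75 counts in AC (29.1%, 23.6 to 35.0), 3 in rods and 0 of 320 in BC. Both are incomplete, but each extends past the position of N1. The annotated forms had their structures taken from GENCODE M21 by identifier. Of them, Grin1-205, without N1, had 28 counts in AC and 12 in BC, and Grin1-207, with N1, had 20 and 1. Among these annotated forms alone, N1 was in 41.7% of counts in AC and 7.69% in BC (1 of 13 counts), and the intervals overlapped. Isoform 4, which has no model, had 32 counts in AC (12.4%) and 0 in BC.

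The tail of Grin1 was covered by fewer counts. The C1 cassette, an exon of 111 bases on chromosome 2 from 25294438 to 25294548, was in 0 of 99 counts that span it (0 to 3.66%). Of the 99, 75 also hold the exons on both sides, and 24 are isoform 5, which joins exon 2 to the last exon. The 32 AC counts of isoform 4 have no structure and are not covered. The last exon begins at either of 2 acceptor sites 356 bases apart, which give the C2 and the C2′ tail. C2 had 14 and C2′ 61 of 75 counts. The share of C2 was 15.8% in AC (7.48 to 27.9) and 23.5% in BC (6.81 to 49.9), and these intervals overlap. The share is set by which isoforms have a structure. All 61 C2′ counts belong to Grin1-205 and Grin1-207, whose structures were taken from GENCODE M21 by identifier, and all 14 C2 counts to isoform 7, which has a deposited model. With deposited models alone C2 was 100% in AC (9 of 9 counts) and in BC (4 of 4).

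Grik1 has an exon of 45 bases, printed above, that was chosen for description after its values were seen. It was in 11 of 23 counts in AC, 69 of 400 in BC and 7 of 40 in rods. The share was 47.8% in AC (26.8 to 69.4), 17.2% in BC (13.7 to 21.3) and 17.5% in rods (7.34 to 32.8). AC and BC did not overlap, and BC and rods did. Both isoforms that hold the exon are unannotated, so with Ensembl transcripts alone the share was 0% in AC (0 of 12 counts) and 0% in BC (0 of 268). All 11 counts in AC belong to isoform 2, an unannotated combination of annotated junctions. In BC, 7 isoforms of Grik1 were found, led by Grik1-206 with 56.2% (51.2 to 61.2), isoform 2 with 12.5% (9.42 to 16.1) and Grik1-203 with 10.8% (7.89 to 14.2). In AC the counts lay on isoforms 1 and 2 alone, 12 and 11.

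None of these differences met the rule for a switch. The rule asks for 20 counts of the gene in each of the classes compared, for another leading isoform, and for a shift of 50 percentage points or more in its share. Of the 5 members that could be compared, Gria1, Gria3, Gria4, Grik1 and Grin1, 0 were switched, against 25% of all 7317 comparable genes. With a minimum of 10 counts, 2 of 7 members were switched, Gria3 and Grik5, chosen after their values were seen, against 35.4% of all comparable genes. Each of the 5 had the same most abundant isoform in all classes with 20 counts. For Gria1 isoform 1 took 52 of 91 counts in AC (46.3 to 67.5%) and 240 of 266 in BC (86 to 93.5%). For Gria4 it took 72.2% in AC (69.6 to 74.6), 83.2% in BC (74.4 to 89.9), 90.0% in MG (68.3 to 98.8) and 65.5% in rods (45.7 to 82.1). For Gria3 it took 52.2% in AC (45.5 to 58.8) and 53.8% in BC (33.4 to 73.4). The minor Gria3 isoforms differed, with isoform 2 at 23.0% in AC (17.8 to 29.0) and 0 of 26 counts in BC, isoform 3 at 17.4% in AC, and isoform 5 at 0 of 230 counts in AC and 42.3% in BC (23.4 to 63.1). In RGC, where Gria3 had 13 counts, isoform 2 had 7 and isoform 6 had 6.

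**Figure D5:**
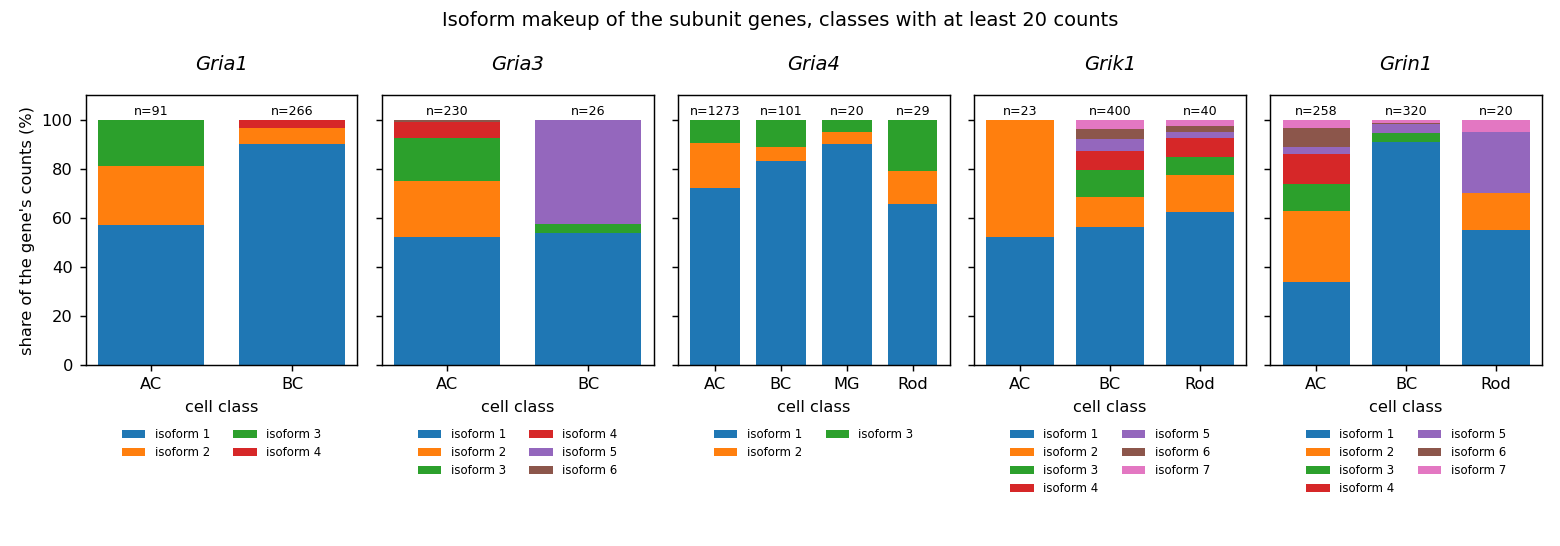
Isoform makeup of the 5 genes with at least 20 counts in more than 1 class, as stacked shares of the gene's counts in percent, with the gene's counts above each bar and isoforms numbered by total counts within each gene. Isoform 1 is the most abundant in every bar, with 33.7% of Grin1 in AC and 90.9% in BC.

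Other genes of glutamate signalling were read from a list of 55. Of these, 43 had counts, and 27 had at least 100. Of the 27, 7 were highest in AC, 5 in BC, 5 in RGC, 4 in MG, 3 in cones and 3 in rods, where the shares of all genes with 100 counts were 19.7%, 13.9%, 15%, 17%, 8.29% and 26.1%. Of 12 auxiliary subunits of AMPA receptors, 5 had at least 100 counts, and 2 of them were highest in AC, 2 in RGC and 1 in MG. Cacng3, which traffics AMPA receptors and slows their gating, had 10398 counts and stood at 204 CPM in AC, 111 in RGC and 0.827 in BC. Cnih2, another auxiliary subunit, stood at 17.4 CPM in RGC, from 61 counts, 16.8 in AC and 2.21 in BC. The other 3 were named after their values were seen. Cacng7 stood at 8.56 CPM in AC, Cnih3 at 32.8 in RGC and 4.99 in AC, and Shisa9 at 14.3 in MG, 2 in BC and 0.249 in AC. The kainate auxiliary subunit Neto2 had 39 counts, all in AC.

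Among scaffolds and trafficking proteins, Pick1 was spread over the classes, from 19.4 CPM in rods to 45.3 in RGC. Gripap1 stood at 15.9 CPM in cones, 12 in BC and 5.12 in AC, and Dlg2 at 13.2 in BC and 10.7 in AC. Adarb1, the enzyme that edits the Gria2 transcript, stood at 9.02 CPM in AC and 1.03 in BC, and its relative Adarb2 at 1.37 and 1.62. The metabotropic receptor Grm6 of ON bipolar cells had 569 counts in BC (19.6 CPM) and 0 in AC, and Grm8 had 944 in AC (19.6 CPM) and 2 in BC. The transporters Slc1a2 and Slc1a7 and the vesicular transporter Slc17a7 stood at 120, 36.5 and 13.8 CPM in cones and 40.4, 24.2 and 12.3 in rods. In BC they stood at 15.2, 37.0 and 12.7 CPM, in MG at 20.2, 4.08 and 1.3, and in AC at 0.166, 0.290 and 0.145. Of the remaining ionotropic subunits, Grik4 had 46 counts and Grid1 45, and none of the 5 with counts reached 100.

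The genes whose class profile was most like that of the summed subunits were found by the smallest sum of absolute differences in the share of summed CPM over the 6 classes, among genes with at least 1000 counts. They were Lnp1 (18266 counts, 19.8 percentage points), Chst9 (1113 counts, 21.3) and Rap1gap (2176 counts, 23.3). The summed subunits had 45.6% of their summed CPM in AC and 39.8% in BC. The shares were 40.9% and 47.5% for Lnp1, 54.5% and 33.1% for Chst9, and 38% and 40.5% for Rap1gap.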

How the data were processed

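Members and gene lists were chosen with earlier results of these data known. The authors deposited whole-number counts per isoform and cell class, made from nanopore reads of 10x cDNA, and transcript models with FLAIR named as source, per the file contents. The build is mm10, per the submitters' processing notes. The aligner, the counting, the cell typing and any collapsing of molecular identifiers are not given in the sources used here, nor is the make-up of the columns by library. The series text names fluorescence sorting, and the protocol magnetic separation. The 36426 models were exactly the isoforms with a rod count. An isoform with an Ensembl identifier and no model was given its GENCODE M21 structure.

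Counts were summed per gene (13448 of 13452 Ensembl identifiers matched a symbol) and scaled to 1000000 per class. All 6 class columns were used, and every value in them was checked to be a whole count of at least 0. No replicate exists, so classes were compared by ratios and exact intervals (SciPy 1.17.1), with the share of all genes meeting the same rule as background. Exons were compared with the longest coding transcript. N1, C1, C2, flip and flop were located in M21. The rules were tested on simulated data. Named were all members, their leading isoforms, per group of the pathway list the 2 genes with most counts and those with at least 1000 counts whose highest class was not AC or RGC, and the 3 nearest genes. Alternatives were scaling by trimmed mean of M-values (edgeR 4.0.16) or median of ratios, minimums on counts and exons, other cut-offs, annotated isoforms, deposited models and flanking exons.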

Additional observations from a re-analysis of the deposited data

Results flagged for a closer look

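The table also lists loci named by position in place of a gene, and 4 of them lie in or beside member genes and carry counts that the levels above do not include. A single-exon model of 509 bases on the strand of Grin2a (chromosome 16, 9991203 to 9991711) had 270 counts, 267 of them in AC, 2 in rods and 1 in BC, beside 38 counts under Grin2a itself. A further locus at Grin2a, named by position 9994000 and without a model, had 37 counts, all in AC. A 2-exon model on the strand of Grin1 (chromosome 2, 25291181 to 25319126) had 31 counts, 21 in BC, 7 in RGC and 3 in rods, where RGC had 0 counts under Grin1 itself. A locus named by position 49093000 of chromosome 10, beside Grik2 and without a model, had 75 counts, all in AC. Each is listed because it holds counts outside the measurement reported for its gene.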

How the results depend on the processing

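The values rest on 1 pooled column per class, so they say nothing about spread between animals, and the RGC, MG and cone columns, with 18 to 26 member counts each, show only large differences. Of 149 recomputed values, 118 stayed within their interval or within 1.5-fold of their count, 29 moved and 2 turned direction. Both turned with isoforms of at least 2 exons in a deposited model, which leaves out isoforms without a model. The summed level of AC over BC, 1.15-fold, was then 0.99-fold, and Gria3 in AC over RGC, 1.29-fold, was 0.551-fold. The AC to BC ratio was also 1.03 with median of ratios, where its interval includes 1, and 1.26 with the same-strand modelled loci added, an alternative chosen after the data were seen. The summed AC level of 45.2 CPM was 39.4 with median of ratios, 36.7 with isoforms of at least 2 exons and 50.7 with those loci, and the BC level of 39.4 CPM was 37.0 with isoforms of at least 2 exons. With that minimum Grin2a and Grin2b had no counts, and with isoforms of at least 10 counts Grin2b was 0.207 CPM in AC. No class with the highest value changed under either scaling, with isoforms of at least 10 counts or without the RGC column. The 4 restricted genes were 2 at a share of 95%, against 6.23% of all genes with at least 10 counts, and 8 at 50%, against 40.6%. With a minimum of 10 counts, 2 of 7 members were switched, against 35.4% of all comparable genes. With deposited models alone, also added later, Gria1 flip was 0% in AC and 0% in BC, because the flip isoform has no such model, and N1 was 0% in BC (0 of 303 counts). With Ensembl identifiers alone, N1 in BC was 7.69% (1 of 13 counts) and 41.7% in AC. C2 was then 0% in AC and BC, and with deposited models alone 100% in both, because its forms fall on one side or the other. The 45-base exon of Grik1 was 0% in AC and BC with Ensembl identifiers, an alternative also added later. The share with both coding ends was 28.0% for any coding transcript. No paired analysis was possible because every class is 1 pooled column without a library or replicate number.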
